A study of Mus musculus with 21 samples.

Results

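Members of the mitochondrial carrier family Slc25 were followed in mouse liver. The diet studied was CDA-HFD, a high-fat diet that lacks choline and supplies defined amino acids, and it serves as a model of fatty liver inflammation with scarring. The family was defined by symbol alone, as the protein-coding genes named Slc25a followed by a number, which gave 47 genes of the 52636 in the count table. Of these, 42 held enough counts to be tested, among 17104 genes tested in all. All animals were wild type, and no transgene or other agent is named. The CDA-HFD groups held 8 livers taken after 8 weeks and 8 taken after 16 weeks on the diet, and they were set against 5 livers from mice that had eaten normal chow for 8 weeks, labelled week 0. No chow livers accompanied the 16-week group, so its greater age and its longer diet cannot be told apart. Whether the chow livers, labelled week 0, match the 8-week group in age cannot be told from the group labels. The labels do not say how many cages, litters or cohorts the animals came from.

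Mitochondrial carriers are small proteins, most of them in the inner mitochondrial membrane, that exchange metabolites, nucleotides, cofactors and ions between the cytosol and the matrix. In liver they serve processes that are split between both compartments. The urea cycle needs ornithine, aspartate and glutamate to cross the membrane, fatty acid synthesis needs exported citrate, fatty acid oxidation needs imported acylcarnitines, and haem synthesis needs imported iron. Adenine nucleotide carriers set both the exchange of ADP for ATP and, through the ATP-Mg/phosphate carriers, the size of the matrix nucleotide pool.

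The libraries held 29037525 to 45868842 counts after 8 weeks and 35254088 to 48901145 counts after 16 weeks of CDA-HFD, against 33522456 to 42586342 on chow. Levels are given as CPM, read counts scaled to each library's size after TMM factors, and a gene was called at an edgeR adjusted p under 0.05 over all 17104 genes. Replicate 3 of the 8-week group stood apart, with a TMM factor of 0.496 against 0.811 to 1.296 in the other 20 libraries, and it held transcripts of other tissues. Where it changes a call or is far from its group, the value without it is given. Nothing in the labels separates technical from biological replicates beyond separate samples, so the p-values measure the spread between these samples. In whole liver, fewer cells of a type and less RNA per cell cannot be told apart.

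Carrier transcripts made up a smaller share of all counts on CDA-HFD. The 47 genes together took 0.258% to 0.407% of the counts after 8 weeks (median 0.377%, lowest 0.357% without replicate 3) and 0.350% to 0.425% after 16 weeks (median 0.362%), against 0.510%, 0.449%, 0.445%, 0.521% and 0.465% in the chow livers. Neither CDA-HFD group overlapped the chow livers, and the 2 CDA-HFD groups overlapped each other. These shares are raw fractions and do not depend on the scaling between libraries.

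At 8 weeks, 21 of 42 members (50.0%) were called against chow, beside a background of 51.3% of all genes tested, so the number of calls alone is that of the genome at large. Of these, 14 were lower, beside 20.5% of all genes, and 7 were higher, beside 30.8%. Scaling by total counts alone gave 9 lower and 8 higher, where that scaling called 44.9% of all genes, 78.3% of them higher. The libraries of the groups did not overlap for 12 members, all lower, where 30.1% of all genes did not overlap. At 16 weeks, 28 of 42 members (66.7%) were called, beside a background of 51.9%. Of the 28, 22 were lower, beside 22.5% of all genes, and 6 were higher, beside 29.4%. Scaling by total counts alone gave 5 lower and 12 higher, where that scaling called 55.2% of all genes, 89.5% of them higher. The libraries did not overlap for 26 members at 16 weeks, 21 of them lower and 5 higher, where 50.5% of all genes did not overlap, 23.3% lower and 27.2% higher. The median log2 change of the 42 members was -0.09 at 8 weeks and -0.58 at 16 weeks, where the medians over all genes were 0.16 and 0.03. Without 8-week replicate 3 the 8-week median of the members was -0.25, beside 0.07 over all genes. With total counts alone the members' medians were -0.05 at 8 weeks and -0.06 at 16 weeks, beside 0.28 and 0.56 over all genes. Total counts alone moved the median of all genes up by 0.12 at 8 weeks and by 0.53 at 16 weeks on the log2 scale, and the smaller falls are read against that shift.

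**Figure D1:**
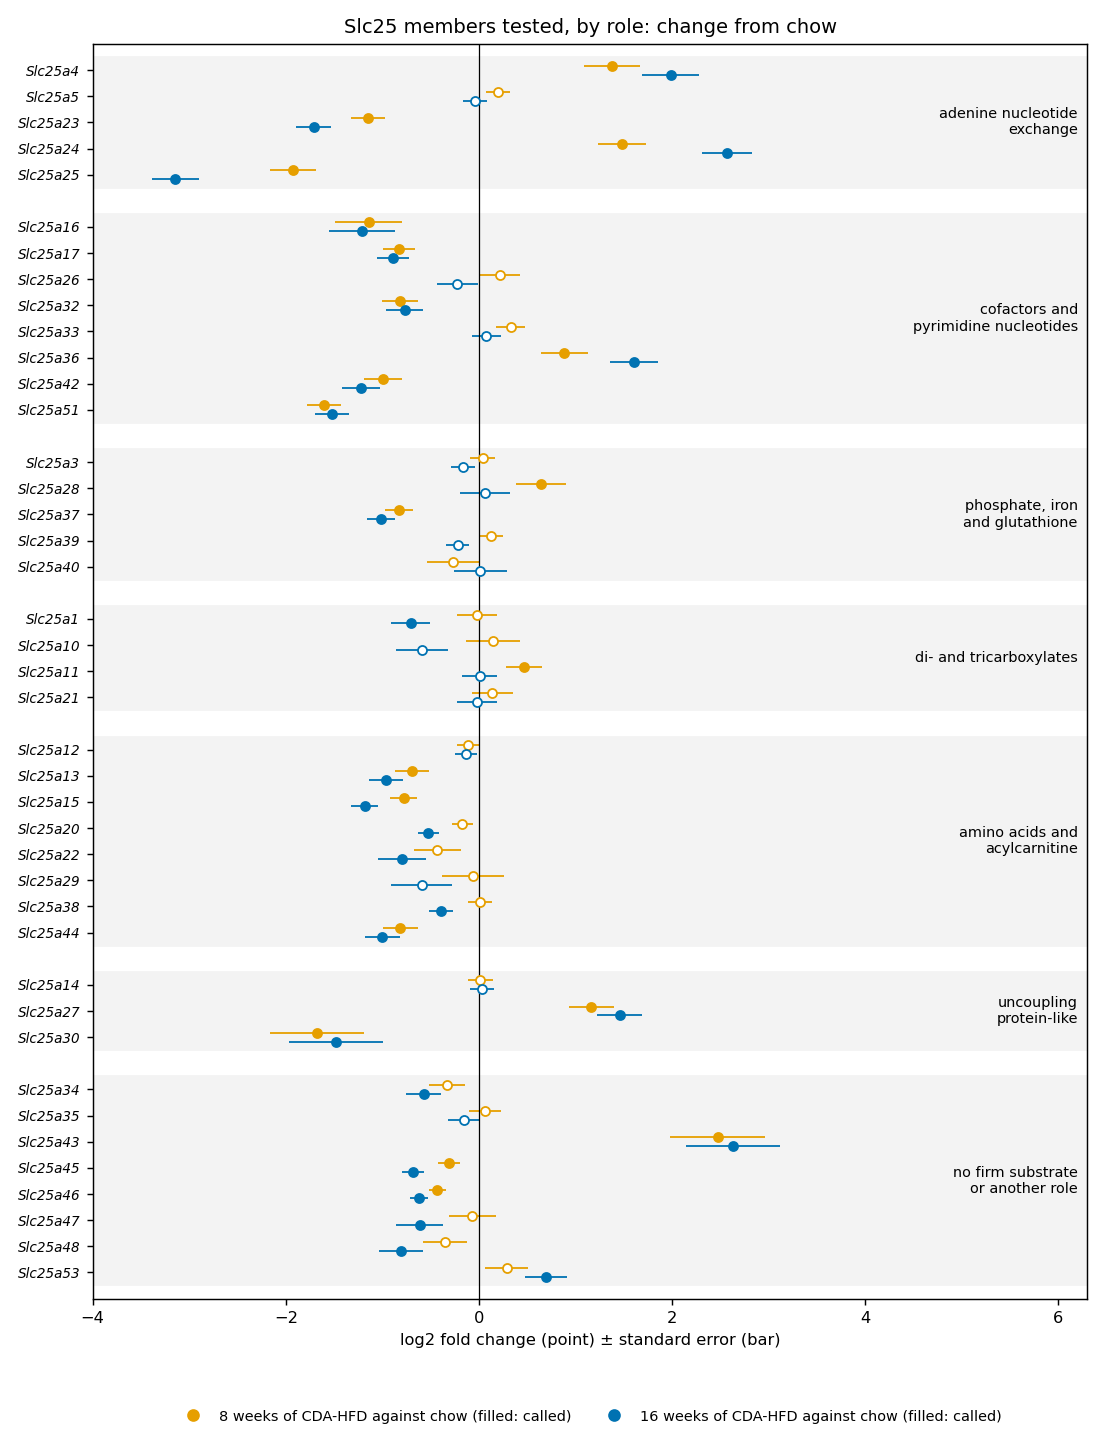
Log2 fold change against chow (x axis; points with bars of 1 standard error) for 41 of the 42 members tested, grouped by role down the page, at 8 weeks (orange) and 16 weeks (blue) of CDA-HFD; filled points were called. At 16 weeks 22 of all 42 members were called lower and 6 higher, beside 22.5% and 29.4% of all genes. Total counts alone gave 5 lower and 12 higher, where 55.2% of all genes were called, 89.5% of them higher. The extremes among members averaging at least 1 CPM in the higher group are Slc25a25 at -3.15 and Slc25a24 at 2.57.

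Calls were compared over 29 alternative settings. At 16 weeks the falls of Slc25a15, Slc25a23, Slc25a25, Slc25a42 and Slc25a51 and the rises of Slc25a4, Slc25a24, Slc25a27 and Slc25a36 were called in all 29. Another 14 of the 22 falls were called in every setting except total counts alone, under which the sign of Slc25a20 and Slc25a38 also turned. At 8 weeks 8 falls and 4 rises were called in all 29 settings. The 2 comparisons with chow share the same 5 chow livers. Between them, 14 members were called lower and 5 higher at both times, 8 were called lower and 1 higher at 16 weeks alone, 2 were called higher at 8 weeks alone, and 12 were called at neither time.

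At 16 weeks the 2 largest falls and, among members averaging at least 1 CPM in the higher group, the largest rise lay within 1 subfamily, the calcium-regulated ATP-Mg/phosphate carriers, which load adenine nucleotides into the matrix. Slc25a25 and Slc25a23 fell, and their paralogue Slc25a24 rose, at both times. Slc25a25 had 166 CPM in its lowest, 197 in its median and 298 in its highest 8-week library, and 62.0, 94.4 and 136 CPM after 16 weeks, against 1178, 450, 575, 1355 and 656 CPM on chow. Every CDA-HFD library lay below every chow library, and the 16-week livers lay below the 8-week livers without overlap. The fall was 3.81-fold at 8 weeks (log2 change -1.93 ± 0.24 SE, edgeR adjusted p = 1.45e-06) and 8.85-fold at 16 weeks (-3.15 ± 0.24, edgeR adjusted p = 2.03e-09). Its coefficient of variation was 22.7% at 8 weeks and 23.7% at 16 weeks, against 47.3% on chow. Of its 7862 exon bases, 379 lie opposite exons of Naif1, and whether the counting used strand is not given.

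Slc25a23 had 142, 260 and 345 CPM (lowest, median, highest) after 8 weeks and 129, 171 and 231 CPM after 16 weeks, against 531, 546, 564, 653 and 533 CPM on chow. The CDA-HFD and chow libraries did not overlap at either time. The log2 change was -1.15 ± 0.18 at 8 weeks (edgeR adjusted p = 2.93e-05) and -1.71 ± 0.18 at 16 weeks (edgeR adjusted p = 1.10e-07).

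Slc25a24 had 1.74, 5.92 and 8.89 CPM after 8 weeks and 9.44, 13.3 and 15.1 CPM after 16 weeks, against 2.17, 1.92, 2.16, 1.91 and 2.55 CPM on chow. The 1.74 CPM was replicate 3, and the other 7 libraries of the 8-week group, at 4.92 CPM or more, lay above all chow livers. Its log2 change was 1.48 ± 0.25 at 8 weeks (edgeR adjusted p = 6.67e-05) and 2.57 ± 0.26 at 16 weeks (edgeR adjusted p = 6.76e-08), and the 16-week livers did not overlap the 8-week livers. Per kilobase of exon, Slc25a24 stood at 0.0403 of the Slc25a23 level in the median 8-week library and 0.134 in the median 16-week library, against 0.00590 on chow. Set against Slc25a25, the median ratio was 0.0654 after 8 weeks and 0.298 after 16 weeks, against 0.00860 on chow. A ratio within a library does not depend on the scaling between libraries, and Slc25a24 remained the least abundant of the 3 in every group. Slc25a41, a short member of the same subfamily, had 2 counts in all 21 libraries together, and Slc25a54 had 0.

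**Figure D2:**
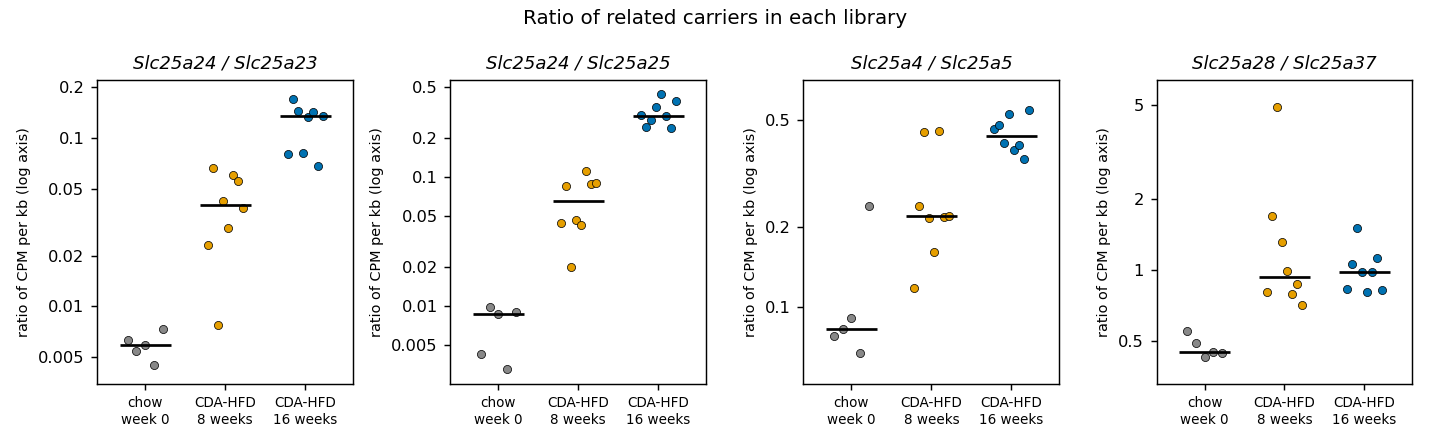
Ratio of CPM per kilobase (log y axis) of pairs of related carriers in each library (points) on chow at week 0 and after 8 and 16 weeks of CDA-HFD, with the median as a bar. Slc25a24 over Slc25a25 has medians of 0.0654 and 0.298 after 8 and 16 weeks, against 0.00860 on chow.

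The sequence before the annotated start of these 3 genes, from the RefSeq promoter table (GRCm38.p6), is shown because these paralogues moved in opposite directions. Windows of 300 bases, 250 before and 50 after the start, were searched on both strands for the cAMP response element TGACGTCA, the E-box CACGTG, the NRF1 element (GCGCA followed directly by TGCGC), the amino acid response element TGATGNAA and the direct repeat (AGGTCA, any base, AGGTCA). The table held 46 windows for 36 of the 47 members. The 250 bases before the start are printed below, in the direction of transcription, with matches in capitals. For Slc25a25 (chr2:32424067-32424316, minus strand) the window shown is the 1 of its 3 that held a match.
Slc25a25: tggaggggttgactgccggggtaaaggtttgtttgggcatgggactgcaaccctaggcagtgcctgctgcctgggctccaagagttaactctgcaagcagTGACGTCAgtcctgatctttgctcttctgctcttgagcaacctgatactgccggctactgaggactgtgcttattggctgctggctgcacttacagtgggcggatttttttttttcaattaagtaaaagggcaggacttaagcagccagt
Slc25a23 (chr17:57059864-57060113, minus strand): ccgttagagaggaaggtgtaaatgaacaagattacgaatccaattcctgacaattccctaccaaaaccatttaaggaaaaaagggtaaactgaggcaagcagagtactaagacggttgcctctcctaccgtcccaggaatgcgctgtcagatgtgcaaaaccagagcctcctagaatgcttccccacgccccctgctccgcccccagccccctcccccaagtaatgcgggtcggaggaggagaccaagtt
Slc25a24 (chr3:109122899-109123148, plus strand): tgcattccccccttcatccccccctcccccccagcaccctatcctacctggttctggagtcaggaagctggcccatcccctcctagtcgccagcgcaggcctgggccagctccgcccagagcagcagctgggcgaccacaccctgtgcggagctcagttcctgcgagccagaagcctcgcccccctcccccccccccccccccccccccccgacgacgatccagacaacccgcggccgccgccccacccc
The capitals in the Slc25a25 sequence are the cAMP response element, which 588 of the 32851 windows in the table held (1.79%). In the windows of Slc25a23 and Slc25a24 none of the 5 motifs was found. The Slc25a24 window was 72.3% G or C, beside 52.3% for the Slc25a25 window shown, 54.0% for the Slc25a23 window shown and a median of 52.7% over all windows. The Slc25a25 windows not shown were 63.0% and 51.3% G or C, and the Slc25a23 window not shown was 55.7%. A match is a description of the letters and not evidence of binding.

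**Figure D3:**
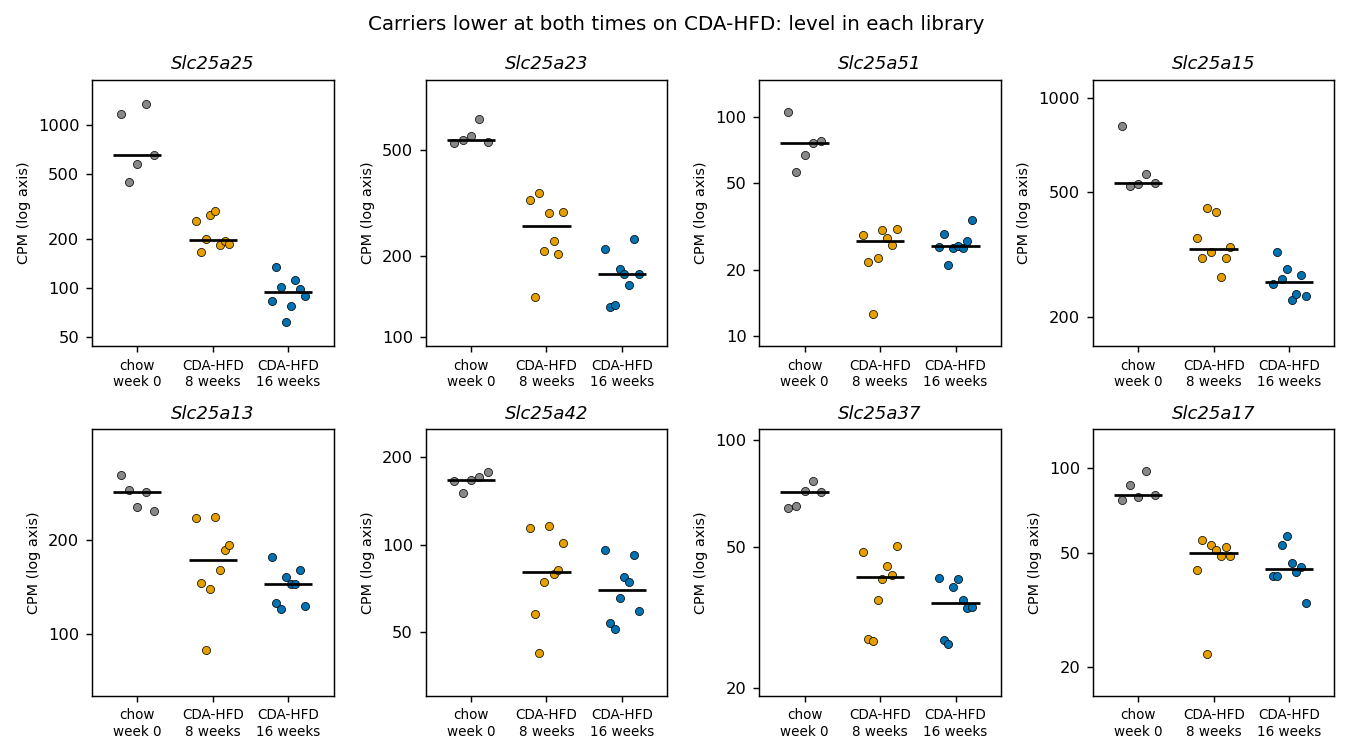
CPM (log y axis) of 8 members called lower at both times, in each library (points) on chow at week 0 and after 8 and 16 weeks of CDA-HFD, with the median as a bar. In each panel the chow libraries lie above all CDA-HFD libraries; Slc25a51 has medians of 27.0 and 25.6 CPM after 8 and 16 weeks, against 75.9 CPM on chow, while with total counts alone Slc25a13 was called at neither time and Slc25a17 and Slc25a37 were not called at 16 weeks.

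Of the ADP/ATP carriers, which exchange cytosolic ADP for ATP made in the matrix, Slc25a4 rose and Slc25a5 was not called. Slc25a4, the carrier typical of muscle and heart, had 11.3, 22.1 and 35.5 CPM after 8 weeks and 28.03, 34.9 and 45.8 CPM after 16 weeks, against 7.17, 6.94, 6.91, 5.68 and 18.1 CPM on chow. It rose at both times, with a log2 change of 1.38 ± 0.29 at 8 weeks (edgeR adjusted p = 5.66e-04) and 1.98 ± 0.30 at 16 weeks (edgeR adjusted p = 9.16e-06). The 16-week livers lay above every chow liver, and 8-week livers overlapped the chow group through chow replicate 5. That chow library also held the most skeletal muscle transcripts of its group, whose 10 markers summed to 434 CPM there with a chow median of 6.80 CPM, and the part of muscle transcripts in Slc25a4 was not tested. The muscle list summed to 1.15 to 3027 CPM after 8 weeks (0 of 10 markers called) and 7.70 to 448 CPM after 16 weeks (0 of 10 called), with the highest sum in 8-week replicate 3, and no marker was at 0 throughout a group. With the 8 libraries that carry most transcripts of other tissues left out together, the rises of Slc25a4 were called at both times, and its rise between 8 and 16 weeks was called as well.

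Slc25a5, the ADP/ATP carrier of most other tissues, was called at neither time. It had 51.2, 67.2 and 83.6 CPM after 8 weeks and 44.0, 55.9 and 66.3 CPM after 16 weeks, against 64.0, 58.5, 53.2, 59.0 and 52.9 CPM on chow. All 3 groups overlapped, and the log2 change at 16 weeks was -0.05 ± 0.12, against 0.48 with total counts alone. Per kilobase, the ratio of Slc25a4 to Slc25a5 had a median of 0.219 after 8 weeks and 0.437 after 16 weeks, against 0.0830 on chow, where replicate 5 reached 0.239. Slc25a31, the carrier of the germ line, had 93 counts in all libraries together and was not tested.

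Among the 9 carriers of cofactors and pyrimidine nucleotides, 5 fell and 1 rose at 8 weeks, and 6 fell and 1 rose at 16 weeks. The shares of all genes lower and higher were 20.5% and 30.8% at 8 weeks, and 22.5% and 29.4% at 16 weeks. Slc25a51, which imports NAD+ into mitochondria, had 12.6, 27.0 and 30.8 CPM after 8 weeks and 20.98, 25.6 and 33.8 CPM after 16 weeks, against 106, 56.1, 67.3, 75.9 and 78.0 CPM on chow. No CDA-HFD library reached the lowest chow library, and without replicate 3 the lowest 8-week library had 21.8 CPM. Its fall was 3.04-fold at 8 weeks (log2 change -1.60 ± 0.18, edgeR adjusted p = 3.79e-07) and 2.88-fold at 16 weeks (-1.53 ± 0.18, edgeR adjusted p = 3.45e-07), and the difference between the CDA-HFD groups was 0.08 ± 0.16 (edgeR adjusted p = 0.761).

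Slc25a42 and Slc25a16, carriers linked to the import of coenzyme A into mitochondria, fell. Slc25a42, which exchanges coenzyme A for adenine nucleotides, had 42.2, 80.6 and 116 CPM after 8 weeks and 51.3, 69.7 and 95.7 CPM after 16 weeks, against 165, 150, 166, 171 and 178 CPM on chow. Its log2 change was -0.99 ± 0.20 at 8 weeks (edgeR adjusted p = 4.09e-04) and -1.22 ± 0.20 at 16 weeks (edgeR adjusted p = 2.92e-05), without overlap at either time. Slc25a16 had 4.59, 62.0 and 73.2 CPM after 8 weeks and 38.1, 51.3 and 61.2 CPM after 16 weeks, against 114, 123, 110, 123 and 111 CPM on chow. The 4.59 CPM was replicate 3 of the 8-week group, and the lowest of the other 7 libraries had 38.5 CPM. The log2 change of Slc25a16 was -1.14 ± 0.34 at 8 weeks (edgeR adjusted p = 0.00909) and -1.21 ± 0.34 at 16 weeks (edgeR adjusted p = 0.00530), and neither call was made with total counts alone.

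The remaining cofactor carriers had smaller differences. Slc25a17, a peroxisomal carrier of coenzyme A, FAD and NAD+, fell at both times (log2 -0.83 and -0.89), as did Slc25a32, which carries folate and FAD (-0.82 and -0.77). With total counts alone Slc25a32 was called at neither time (edgeR adjusted p = 0.0642 and 0.475) and Slc25a17 was not called at 16 weeks (edgeR adjusted p = 0.205). Slc25a26, which imports S-adenosylmethionine, was called at neither time, at 5.80, 7.99 and 20.5 CPM after 8 weeks and 5.98, 6.76 and 8.01 CPM after 16 weeks, against 6.95 to 8.83 CPM on chow. Its 20.5 CPM was 8-week replicate 3, and with total counts alone its log2 change at 16 weeks was 0.30 (edgeR adjusted p = 0.0481), against -0.23 otherwise. Of 6 genes of mitochondrial one-carbon metabolism, which uses the folate that Slc25a32 carries, 1 was higher and 0 lower at 8 weeks. At 16 weeks 2 were higher and 2 lower. Beside these stand 30.8% of all genes higher and 20.5% lower at 8 weeks, and 29.4% and 22.5% at 16 weeks. Mthfd2, a folate dehydrogenase, averaged 12.5 ± 3.38 CPM after 8 weeks and 12.4 ± 2.48 CPM after 16 weeks, against 3.61 ± 0.893 CPM on chow.

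The carriers of pyrimidine nucleotides differed from each other. Slc25a36 had 1.74, 7.11 and 9.04 CPM after 8 weeks and 9.04, 10.5 and 12.9 CPM after 16 weeks, against 3.82, 3.36, 3.98, 2.40 and 4.11 CPM on chow. Apart from 8-week replicate 3, every CDA-HFD library lay above every chow library. Its log2 change was 0.88 ± 0.25 at 8 weeks (edgeR adjusted p = 0.00555) and 1.61 ± 0.25 at 16 weeks (edgeR adjusted p = 1.71e-05). Slc25a33 was called at neither time, with medians of 37.5 CPM after 8 weeks and 30.0 CPM after 16 weeks, against 28.2 CPM on chow. Per kilobase the median ratio of Slc25a36 to Slc25a33 was 0.0322 after 8 weeks and 0.0639 after 16 weeks, against 0.0221 on chow.

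Slc25a36 was the only other matched member with a cAMP response element in its window, so the 2 carriers of this motif changed in opposite directions. Its upstream sequence (chr9:97111042-97111291, minus strand) holds an E-box as well, which comes earlier in the sequence.
Slc25a36: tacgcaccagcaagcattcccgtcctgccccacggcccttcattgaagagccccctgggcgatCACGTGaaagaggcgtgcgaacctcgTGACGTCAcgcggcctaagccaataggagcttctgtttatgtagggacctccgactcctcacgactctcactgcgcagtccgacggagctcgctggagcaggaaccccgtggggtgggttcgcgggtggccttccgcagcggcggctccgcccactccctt

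**Figure D4:**
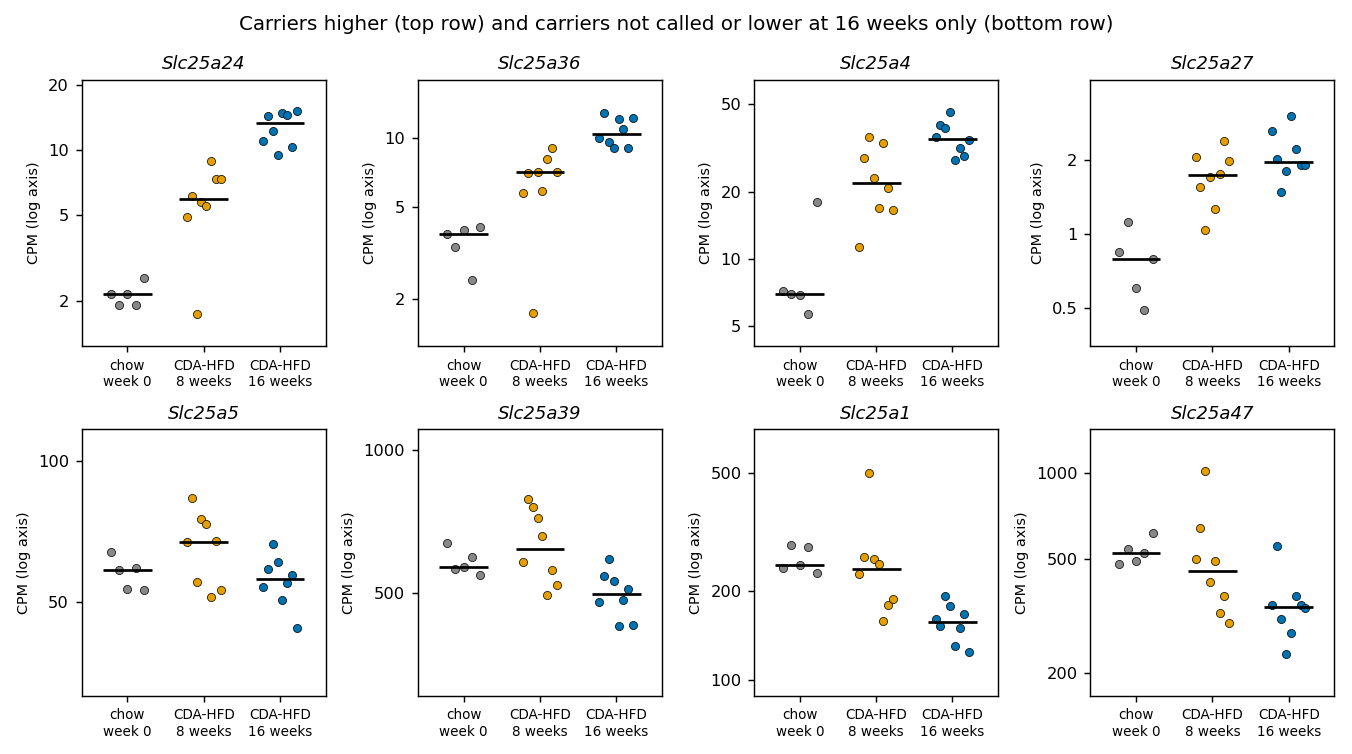
CPM (log y axis) in each library (points) on chow at week 0 and after 8 and 16 weeks of CDA-HFD, with the median as a bar, for 4 members called higher at both times (top row) and 4 members called at neither time or lower at 16 weeks alone (bottom row). Slc25a24 has medians of 5.92 and 13.3 CPM after 8 and 16 weeks, against 2.16 CPM on chow, while Slc25a5 and Slc25a39 overlap chow at both times; the fall of Slc25a1 and Slc25a47 at 16 weeks was not called with total counts alone.

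Of the 8 tested carriers of amino acids and acylcarnitines, which include those of the urea cycle, 3 were called lower and 0 higher at 8 weeks. At 16 weeks 6 were called lower and 0 higher, of which total counts alone called Slc25a15. The background over all genes was 20.5% lower and 30.8% higher at 8 weeks, and 22.5% and 29.4% at 16 weeks. Slc25a15, which exchanges ornithine for citrulline, had 267, 328 and 446 CPM after 8 weeks and 226, 259 and 321 CPM after 16 weeks, against 815, 522, 531, 571 and 535 CPM on chow. The chow libraries lay above all others, with replicate 1 the highest. The log2 change was -0.78 ± 0.14 at 8 weeks (edgeR adjusted p = 1.12e-04) and -1.19 ± 0.14 at 16 weeks (edgeR adjusted p = 3.79e-07). Its relative Slc25a2 had 110 counts in all libraries together and was not tested.

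Slc25a13, the aspartate/glutamate carrier of liver, had 88.7, 173 and 236 CPM after 8 weeks and 120, 144 and 177 CPM after 16 weeks, against 322, 289, 255, 285 and 248 CPM on chow. Neither CDA-HFD group overlapped the chow livers. The log2 change was -0.69 ± 0.17 at 8 weeks (edgeR adjusted p = 0.00271) and -0.97 ± 0.17 at 16 weeks (edgeR adjusted p = 8.66e-05), and with total counts alone neither was called (edgeR adjusted p = 0.0703 and 0.112). The lowest 8-week library was replicate 3, and the lowest of the other 7 had 139 CPM. Slc25a12, the aspartate/glutamate carrier of brain and muscle, was called at neither time, at medians of 21.8 CPM after 8 weeks and 20.5 CPM after 16 weeks, against 21.9 CPM on chow.

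Slc25a22, a glutamate carrier, had 55.4, 187 and 323 CPM after 8 weeks and 128, 142 and 190 CPM after 16 weeks, against 355, 210, 240, 225 and 263 CPM on chow. The lowest 8-week library was replicate 3, and the lowest of the other 7 had 152 CPM. Its fall was called at 16 weeks (log2 -0.80 ± 0.25, edgeR adjusted p = 0.00965) and not at 8 weeks (-0.43 ± 0.25, edgeR adjusted p = 0.148). Slc25a44, which imports branched-chain amino acids, fell at both times (-0.81 and -1.002), and Slc25a38, which carries glycine for haem synthesis, fell at 16 weeks (-0.39 ± 0.12, edgeR adjusted p = 0.00949; 0.13 with total counts alone). Slc25a29, which carries basic amino acids, was called at neither time, and Slc25a18, the other glutamate carrier, had 8 counts in all.

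The windows of Slc25a13 (chr6:6217174-6217423, minus strand) and Slc25a15 (chr8:22398278-22398527, minus strand) each held the E-box, shown in capitals, a motif present in 8 of the 46 member windows and in 7.15% of all windows. For Slc25a15 the window shown is 1 of 2, and the other held none of the 5 motifs.
Slc25a13: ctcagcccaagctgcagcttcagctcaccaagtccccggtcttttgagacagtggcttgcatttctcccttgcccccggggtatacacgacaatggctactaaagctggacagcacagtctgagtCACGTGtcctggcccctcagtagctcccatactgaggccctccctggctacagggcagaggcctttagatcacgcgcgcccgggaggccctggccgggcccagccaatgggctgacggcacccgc
Slc25a15: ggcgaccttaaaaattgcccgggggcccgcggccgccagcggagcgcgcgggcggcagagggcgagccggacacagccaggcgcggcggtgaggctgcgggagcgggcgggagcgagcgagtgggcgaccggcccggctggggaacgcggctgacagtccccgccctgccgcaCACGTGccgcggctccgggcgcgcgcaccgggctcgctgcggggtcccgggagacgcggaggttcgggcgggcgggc
The other members with an E-box were Slc25a1, Slc25a14, Slc25a31, Slc25a33 and Slc25a36, among them members called lower, higher and at neither time. No member window held the NRF1 element, the amino acid response element or the direct repeat, which 0.971%, 3.97% and 0.0396% of all windows held. The common GC box (GGGCGG) was in 38 of the 46 member windows (82.6%) and 35.7% of all windows, and the CCAAT box (CCAAT) in 22 (47.8%) and 37.4%, both searched on both strands and not capitalised.

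Of 6 urea cycle genes, 4 were called lower at 8 weeks and 5 at 16 weeks, and 0 were higher. At those times 20.5% and 22.5% of all genes were lower, and 30.8% and 29.4% were higher. Cps1, which makes carbamoyl phosphate in the matrix, averaged 1839 ± 849 CPM after 8 weeks and 1559 ± 297 CPM after 16 weeks (SD, n = 8 each), against 5119 ± 1253 CPM on chow (n = 5). Arg1, which releases the ornithine that Slc25a15 returns to the matrix, averaged 580 ± 189 and 437 ± 94.1 CPM after 8 and 16 weeks, against 1688 ± 406 CPM on chow. Of 4 enzymes of the malate-aspartate shuttle, 2 were lower at 8 weeks and 3 at 16 weeks, with Got1, the cytosolic aspartate aminotransferase, at log2 -1.33 ± 0.30 and -1.51 ± 0.30.

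Slc25a20, the carnitine-acylcarnitine carrier, fell at 16 weeks alone. It had 94.7, 116 and 142 CPM after 8 weeks and 75.7, 93.8 and 104 CPM after 16 weeks, against 119, 147, 131, 139 and 124 CPM on chow. The 16-week livers lay below every chow liver, and the log2 change was -0.52 ± 0.11 (edgeR adjusted p = 2.69e-04), while total counts alone gave 0.00 (edgeR adjusted p = 0.996). Of 15 genes of the carnitine shuttle and beta-oxidation, 3 were higher and 1 lower at 8 weeks, and 1 was higher and 6 were lower at 16 weeks. Over all genes tested, 30.8% were higher and 20.5% lower at 8 weeks, and 29.4% and 22.5% at 16 weeks. Cpt1b, the muscle form of the enzyme that makes acylcarnitines, was the gene higher at 16 weeks, at 8.97 ± 2.97 CPM after 8 weeks and 7.21 ± 2.48 CPM after 16 weeks, against 3.23 ± 0.958 CPM on chow. Acaa2, the last enzyme of the cycle, averaged 607 ± 74.6 CPM after 16 weeks, against 1116 ± 86.5 CPM on chow.

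Of the 4 carriers of di- and tricarboxylates, 1 was called higher at 8 weeks and 1 lower at 16 weeks, beside 30.8% and 22.5% of all genes. Slc25a1, which exports citrate, had 159, 238 and 503 CPM after 8 weeks and 124, 157 and 193 CPM after 16 weeks, against 239, 287, 246, 281 and 231 CPM on chow. The 16-week livers lay below every chow liver, and the 503 CPM was 8-week replicate 3. The log2 change was -0.02 ± 0.20 at 8 weeks (edgeR adjusted p = 0.936) and -0.71 ± 0.20 at 16 weeks (edgeR adjusted p = 0.00570). Without 8-week replicates 3, 4 and 5 the change at 8 weeks was -0.35 (edgeR adjusted p = 0.0446), the only 1 of 29 settings that called it. With total counts alone the 16-week change was -0.18 and not called (edgeR adjusted p = 0.188).

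Slc25a10, the dicarboxylate carrier, had 146, 199 and 652 CPM after 8 weeks and 116, 145 and 185 CPM after 16 weeks, against 200, 275, 196, 258 and 196 CPM on chow. It was called at neither time against chow, although the 16-week livers all lay below the chow livers (log2 -0.59 ± 0.27, edgeR adjusted p = 0.0750). The 16-week difference was called without 8-week replicate 3 (edgeR adjusted p = 5.95e-04), whose 652 CPM was the highest value of its group. Slc25a11, the 2-oxoglutarate/malate carrier, had 73.1, 107 and 205 CPM after 8 weeks and 71.5, 81.9 and 105 CPM after 16 weeks, against 90.2, 86.8, 77.8, 91.6 and 75.3 CPM on chow. Its rise at 8 weeks (0.46 ± 0.18, edgeR adjusted p = 0.0416) overlapped the chow livers. The call was lost in 15 of 29 settings, among them those without 8-week replicate 3 or without any single chow library. Slc25a21, the oxodicarboxylate carrier, was called at neither time.

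All 5 genes of cytosolic citrate use fell at both times. Acacb, an acetyl-CoA carboxylase, averaged 27.8 ± 15.3 CPM after 8 weeks and 14.5 ± 4.58 CPM after 16 weeks, against 155 ± 36.4 CPM on chow. Me1, the cytosolic malic enzyme, averaged 14.5 ± 5.62 CPM after 8 weeks and 15.6 ± 5.42 CPM after 16 weeks, against 92.4 ± 24.4 CPM on chow. Of 13 genes of the tricarboxylic acid cycle, 1 was higher and 4 lower at 8 weeks, and 0 were higher and 6 lower at 16 weeks. Among all genes tested, 30.8% were higher and 20.5% lower at 8 weeks, and 29.4% and 22.5% at 16 weeks.

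Of the 2 mitoferrins, which bring iron into the matrix, Slc25a37 fell at both times and Slc25a28 was called higher at 8 weeks alone. Slc25a37, mitoferrin 1, had 27.0, 41.1 and 50.2 CPM after 8 weeks and 26.6, 34.7 and 40.9 CPM after 16 weeks, against 64.3, 65.3, 72.1, 76.6 and 71.2 CPM on chow. The groups did not overlap, with a log2 change of -0.83 ± 0.15 at 8 weeks (edgeR adjusted p = 1.23e-04) and -1.01 ± 0.15 at 16 weeks (edgeR adjusted p = 7.24e-06; 0.0634 with total counts alone). Slc25a28, mitoferrin 2, had 21.8, 24.7 and 83.2 CPM after 8 weeks and 17.4, 21.4 and 25.1 CPM after 16 weeks, against 22.03, 20.02, 19.3, 21.4 and 19.8 CPM on chow. Its call at 8 weeks (0.64 ± 0.26, edgeR adjusted p = 0.0446) rested on replicate 3 for its size: without that library the log2 change was 0.26 (edgeR adjusted p = 0.0278), and it was lost in 17 of 29 settings. Per kilobase the median ratio of Slc25a28 to Slc25a37 was 0.934 after 8 weeks and 0.979 after 16 weeks, against 0.449 on chow, with no overlap between CDA-HFD and chow. The 6 red blood cell markers summed to 160 to 1129 CPM after 8 weeks (1 of 5 tested markers lower) and 88.3 to 206 CPM after 16 weeks (2 lower), against 285 to 414 CPM on chow, with no marker at 0, and their part in the Slc25a37 level was not tested. The 1129 CPM was 8-week replicate 3, and the highest of the other 8-week libraries had 296 CPM.

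Slc25a39, a carrier of glutathione, was the most abundant member per kilobase in all 3 groups. It had 497, 621 and 791 CPM after 8 weeks and 426, 498 and 592 CPM after 16 weeks, against 638, 564, 569, 598 and 547 CPM on chow. The groups overlapped and neither difference from chow was called. Its share of the family's summed CPM per kilobase had a median of 20.3% after 8 weeks and 20.7% after 16 weeks, against 15.3% on chow. The highest chow library had 15.9% and the lowest CDA-HFD library had 17.4%. Its paralogue Slc25a40 and the phosphate carrier Slc25a3 were called at neither time, and Slc25a3 had medians of 264 CPM after 8 weeks and 214 CPM after 16 weeks, against 252 CPM on chow. Of 10 genes of mitochondrial iron, haem and iron-sulfur synthesis, 1 was higher and 7 lower at 8 weeks, and 0 were higher and 8 lower at 16 weeks. Background shares were 30.8% higher and 20.5% lower at 8 weeks, and 29.4% and 22.5% at 16 weeks. Abcb10, an inner membrane transporter that binds mitoferrin 1, averaged 29.3 ± 5.13 CPM after 8 weeks and 24.5 ± 4.13 CPM after 16 weeks, against 78.2 ± 5.59 CPM on chow.

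Of the members related to uncoupling proteins, Slc25a27 rose and Slc25a14 was called at neither time. Slc25a30 was called lower at both times, but at neither without chow replicate 4. Slc25a27 had 1.04, 1.73 and 2.39 CPM after 8 weeks and 1.49, 1.97 and 3.03 CPM after 16 weeks, against 0.846, 1.12, 0.607, 0.492 and 0.794 CPM on chow. The log2 change was 1.16 ± 0.23 at 8 weeks (edgeR adjusted p = 3.74e-04) and 1.46 ± 0.23 at 16 weeks (edgeR adjusted p = 2.14e-05), and the 16-week livers did not overlap the chow livers. Slc25a30 had 3.34, 21.4 and 35.5 CPM after 8 weeks and 9.64, 20.9 and 44.9 CPM after 16 weeks, against 25.3, 24.9, 66.2, 172 and 31.0 CPM on chow. Both comparisons overlapped. The log2 change was -1.67 ± 0.49 at 8 weeks (edgeR adjusted p = 0.00760) and -1.48 ± 0.49 at 16 weeks (edgeR adjusted p = 0.0141), and without chow replicate 4 it was -0.88 (edgeR adjusted p = 0.109) and -0.69 (edgeR adjusted p = 0.215). With total counts alone the 16-week fall of Slc25a30 was not called either (-0.91, edgeR adjusted p = 0.150). Of 7 carriers outside the symbol rule, 2 were higher and 1 lower at 8 weeks, and 1 was higher and 1 lower at 16 weeks. Beside these stand 30.8% of all genes higher and 20.5% lower at 8 weeks, and 29.4% and 22.5% at 16 weeks. Among the 7, Ucp2, an uncoupling protein abundant in macrophages, averaged 253 ± 157 CPM after 8 weeks and 243 ± 34.7 CPM after 16 weeks, against 40.8 ± 7.58 CPM on chow.

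Among the 8 members without a firmly assigned substrate or with another role, 2 fell and 1 rose at 8 weeks. At 16 weeks 5 fell and 2 rose. All genes tested gave 20.5% lower and 30.8% higher at 8 weeks, and 22.5% and 29.4% at 16 weeks. Slc25a47, a carrier enriched in liver, had 300, 455 and 1010 CPM after 8 weeks and 234, 342 and 557 CPM after 16 weeks, against 480, 543, 492, 527 and 616 CPM on chow. The highest 8-week library was replicate 3, and the highest of the other 7 had 639.9 CPM. Its fall at 16 weeks (log2 -0.61 ± 0.24, edgeR adjusted p = 0.0369) overlapped the chow livers through 16-week replicate 2 and was lost in 13 of 29 settings. Slc25a48, needed for choline import into mitochondria in mouse and human cells, had 10.8, 16.8 and 36.4 CPM after 8 weeks and 11.5, 13.7 and 14.9 CPM after 16 weeks, against 16.5 to 37.0 CPM on chow. It fell at 16 weeks (-0.81 ± 0.23, edgeR adjusted p = 0.00522), and at 8 weeks it was called only where replicate 3 was left out (-0.57, edgeR adjusted p = 0.0102), alone or with others. Slc25a46, an outer membrane protein of mitochondrial fission, fell at both times (-0.43 and -0.62), as did Slc25a45 (-0.31 and -0.68), and Slc25a34 fell at 16 weeks (-0.57). With total counts alone none of these was called. The 8-week call of Slc25a45 was also lost with the 8 libraries of most other-tissue transcripts left out, with no filter on low counts, and without 8-week replicate 7, chow replicate 4 or chow replicate 5 (edgeR adjusted p = 0.0829, 0.0906, 0.0502, 0.0948 and 0.0854). Slc25a43 rose at both times and Slc25a53 at 16 weeks, both at under 1 CPM in most libraries, with Slc25a43 at 0.359 ± 0.181 CPM after 8 weeks and 0.397 ± 0.112 CPM after 16 weeks (SD, n = 8 each), against 0.0626 ± 0.0342 CPM on chow (n = 5). Slc25a35 was called at neither time.

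On the scale of mean CPM per kilobase, the 6 most abundant members on chow were Slc25a39 at 212, Slc25a47 at 178, Slc25a1 at 119, and Slc25a25, Slc25a23 and Slc25a15 at 107, 107 and 106. The last 3 did not differ beyond their spread on chow. Slc25a25 ranked 12 of 47 after 8 weeks and 17 after 16 weeks, against 4 on chow, and Slc25a23 ranked 7 and 10, against 5 on chow. Slc25a39, Slc25a47 and Slc25a1 kept ranks 1 to 3 in all 3 groups, and Slc25a4 ranked 20 after 8 weeks and 16 after 16 weeks, against 28 on chow.

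Between the CDA-HFD groups, 12 of 42 members were called at 16 against 8 weeks, 2 higher and 10 lower. The background was 21.6%, 10.6% higher and 11% lower. Total counts alone gave 4 members higher and 1 lower, where that scaling called 27.4% of all genes, 94.8% of them higher. The libraries did not overlap for 2 members, Slc25a24 and Slc25a25, 1 higher and 1 lower, where 3.09% of all genes did not overlap, 2.58% higher and 0.509% lower. Slc25a24 was higher (log2 1.09 ± 0.20, edgeR adjusted p = 0.00118), Slc25a36 was higher (0.72 ± 0.21, edgeR adjusted p = 0.0190) and Slc25a25 was lower (-1.22 ± 0.21, edgeR adjusted p = 6.24e-04) at 16 weeks, and these 3 were called in all 29 settings. The other 9 called members were lower by 0.35 to 0.73 on the log2 scale, among them Slc25a1, Slc25a10, Slc25a15 and Slc25a23. Each was lost with total counts alone and in at least 1 further setting, and Slc25a11 was lost in 23 of 29. Of these 9, Slc25a11, Slc25a15, Slc25a20, Slc25a38, Slc25a39 and Slc25a45 turned sign with total counts alone.

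Replicate 3 of the 8-week group had a different carrier profile from the other 7 libraries of its group. Of 42 members, 9 were over 2-fold above and 13 over 2-fold below the median of those 7. Slc25a16 stood at 4.59 CPM, against a median of 62.5 CPM in the others, and Slc25a10 stood at 652 CPM, against 195 CPM. Without this library 6 members were called higher and 17 lower at 8 weeks, 14 of the 17 shared with the 14 called when it is kept. Leaving it out also moved the share of all genes called to 57.2%, 55.0% of them higher, from 51.3%, 60.1% of them higher.

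**Figure D5:**
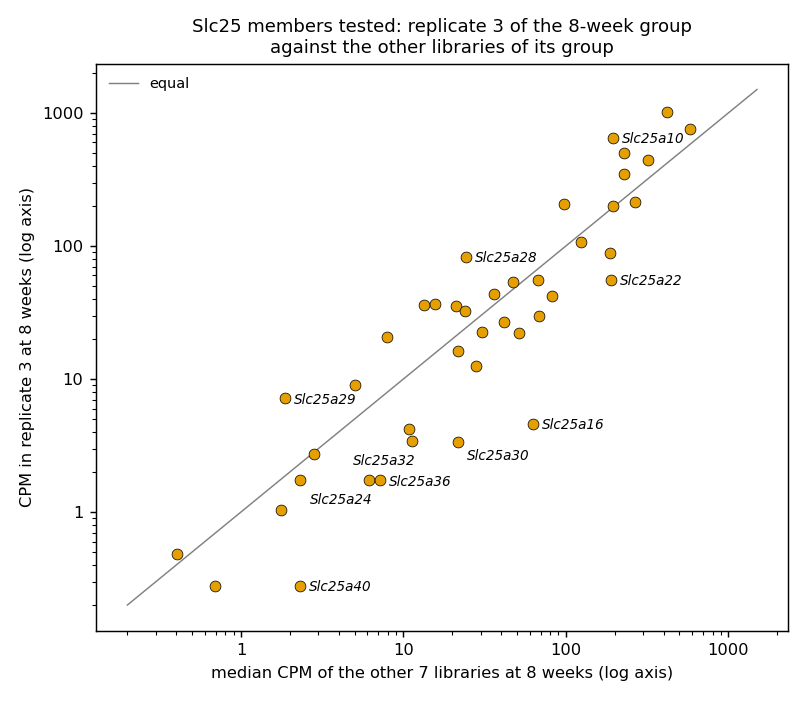
CPM in 8-week replicate 3 (log y axis) against the median CPM of the other 7 libraries at 8 weeks (log x axis) for the 42 members tested, 1 point each; the line marks equal values. Slc25a28, Slc25a10 and Slc25a29 lie furthest above the line and Slc25a16, Slc25a40 and Slc25a30 furthest below.

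Markers of cell types moved with the diet beside these carriers. The 8 macrophage markers summed to 1738 to 7322 CPM after 8 weeks (8 of 8 higher) and 2844 to 4799 CPM after 16 weeks (7 of 8 higher), against 421 to 564 CPM on chow. The 6 fibroblast and stellate cell markers summed to 420 to 1473 CPM (5 of 6 higher) and 884 to 1517 CPM (4 of 6 higher), against 94.9 to 190 CPM. The 6 hepatocyte markers summed to 92614 to 337281 CPM after 8 weeks (1 higher, 2 lower) and 69941 to 100472 CPM after 16 weeks (0 higher, 4 lower), against 93855 to 140109 CPM on chow, which identifies the tissue as liver. No marker of these lists was at 0 throughout a group. Of 6 T cell markers, 5 were higher and 1 lower at both times, with sums of 6.07 to 52.4 CPM after 8 weeks and 11.5 to 38.8 CPM after 16 weeks, against 6.21 to 8.76 CPM on chow. Replicate 3 gave the highest 8-week sum of the macrophage, fibroblast, hepatocyte and T cell lists. The highest sums in the other 8-week libraries were 3582, 1153, 187142 and 31.1 CPM. Of 8 tested squamous epithelium markers, 8 were higher at 8 weeks and 7 at 16 weeks. Their list summed to 0.0884 to 1837 CPM after 8 weeks (highest in replicate 3, with 291 CPM in replicate 6) and 1.74 to 260.0 CPM after 16 weeks (highest in replicate 1), against 0.0368 to 0.660 CPM on chow, where 6 of its 10 markers were at 0. Of 7 tested exocrine pancreas markers, 7 were higher at 8 weeks and 0 at 16 weeks, and the list of 8 summed to 16.8 to 8204 CPM after 8 weeks (highest in replicate 4) and 11.8 to 16.6 CPM after 16 weeks, against 16.8 to 31.5 CPM on chow, with Amy2a5 at 0 after 16 weeks and on chow. The 13 protein-coding genes of the mitochondrial genome summed to 5027 to 34318 CPM after 8 weeks (9 of 13 lower) and 19428 to 27406 CPM after 16 weeks (12 of 13 lower), against 48998 to 65777 CPM on chow. The 5027 CPM was 8-week replicate 3, and the lowest of the other 8-week libraries had 22781 CPM. Of 7 regulators of mitochondrial biogenesis, 3 were lower at 8 weeks and 4 at 16 weeks, with Gabpa at log2 -0.98 and -0.87. As background to the lists here, 30.8% of all genes were higher and 20.5% lower at 8 weeks. At 16 weeks 29.4% were higher and 22.5% lower. The part of cell composition, of other tissues and of mitochondrial content in the changes of the carriers was not tested.

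The members lie on 19 chromosomes, with 4 on X, and 4 pairs lie within 25 kb of each other on GRCm38. Slc25a54 lies 6461 bases from Slc25a24 on chromosome 3, and it had 0 counts while Slc25a24 rose. Slc25a41 lies 2056 bases from Slc25a23 on chromosome 17 and had 2 counts. Slc25a43 and Slc25a5 lie 18448 bases apart on X, with log2 changes of 2.63 and -0.05 at 16 weeks. Slc25a29 and Slc25a47 lie 162 bases apart on chromosome 12, with -0.59 and -0.61 at 16 weeks, of which that of Slc25a47 was called. Exons of 12 members overlap a gene on the opposite strand, from 32 bases in Slc25a18 to 1151 of the 3677 exon bases in Slc25a35. The overlaps of Slc25a10, Slc25a11, Slc25a23 and Slc25a37 are 168 to 473 bases.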

How the data were processed

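Bulk RNA was measured in 21 mouse livers. Per the labels, total RNA was extracted with an RNeasy kit and made into stranded total RNA libraries. The authors deposited raw read counts per gene, and GRCm38 is the build in the submitters' processing notes. Which aligner, counting program, strand setting and annotation release were used is not given in the sources used here. Gene lengths, positions and overlaps came from GENCODE M21, and promoter windows from RefSeq GRCm38.p6. The table's columns for all 21 samples were used as deposited.

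From the counts, genes passing edgeR's filterByExpr were fitted in edgeR 4.0.16 (R 4.3.3) with TMM scaling and the quasi-likelihood test, all 21 libraries in one fit and 3 contrasts, with Benjamini-Hochberg adjustment over 17104 genes and a threshold of 0.05. The SE of a log2 fold change is its size divided by the square root of F. Groups came from the labels; replicate numbers were given in accession order. Totals of 29037525 to 48901145 counts leave the counting error of members above 10 CPM small beside the spread between livers. Members and lists were chosen with earlier results of these data known. All 47 members enter the counts, and the values of 1 of them are not reported here; full values go to the 5 strongest rises and 5 strongest falls called in each comparison among members with a mean of at least 1 CPM, the 6 most abundant per kilobase on chow, and a panel of 12, which makes 22; values of other members were added after they were seen. Partner genes named are up to 2 called per list and comparison with the largest change. Alternatives were the Wald test and size factors of DESeq2 1.42.0, total counts alone, other filters on low counts, fits of only the 2 groups compared, and leaving libraries out. The fit was tested on simulated data with known changes. Figures used matplotlib 3.10.9.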

Additional observations from a re-analysis of the deposited data

Results flagged for a closer look

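In groups of 5 or 8 libraries, single values lay further from the rest than Dixon's 95% critical value in 9 of 66 groups examined, where chance flags about 1 in 20. Replicate 3 of the 8-week group gave 4 of them, with Slc25a1 at 503 CPM, Slc25a10 at 652 CPM and Slc25a28 at 83.2 CPM above, and Slc25a36 at 1.74 CPM below, the other 7 libraries. Replicate 2 of the 16-week group held 557 CPM of Slc25a47. On chow, replicate 5 held 18.1 CPM of Slc25a4, replicate 1 held 815 CPM of Slc25a15, and replicate 4 held 653 CPM of Slc25a23 and 172 CPM of Slc25a30.

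The change from chow differed between the times for 10 of the 22 members given full values, by edgeR's test of 16 against 8 weeks with adjusted p under 0.05. Some of the 22 were chosen as the strongest calls of this same comparison, so the count of 10 is no measure of the family. Over all 42 members tested 12 were called, beside 21.6% of all genes. The 16-week change minus the 8-week change was -1.22 for Slc25a25, -0.73 for Slc25a10, -0.68 for Slc25a1, -0.56 for Slc25a23, -0.46 for Slc25a11, -0.41 for Slc25a15, -0.35 for Slc25a20 and -0.35 for Slc25a39 on the log2 scale. It was 1.09 for Slc25a24 and 0.72 for Slc25a36. Scaling by total counts alone turned the sign for Slc25a11, Slc25a15, Slc25a20 and Slc25a39.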

How the results depend on the processing

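Of 1914 values of the members given full values under the alternatives, 1774 kept their side of the threshold. Another 108 lost and 26 gained a call without turning sign, and 6 crossed the threshold with a turned sign. Values not called in either fit could also turn sign and are counted in the 1774. Slc25a39 at 16 weeks, for example, was at -0.22 on the log2 scale and reached 0.31 under an alternative. The 6 that crossed it with a turned sign all came with total counts alone. At 16 weeks they were Slc25a5 at 0.48 and Slc25a20 at 0.0010 on the log2 scale. At 16 against 8 weeks they were Slc25a11 at 0.022, Slc25a15 at 0.026, Slc25a20 at 0.039 and Slc25a39 at 0.070. Total counts alone called 9 members lower and 8 higher at 8 weeks, 17 at 16 weeks (12 higher, 5 lower) and 5 at 16 against 8 weeks (4 higher, 1 lower). Over all genes that scaling called 44.9%, 55.2% and 27.4% in these comparisons, and 78.3%, 89.5% and 94.8% of the called genes were higher. It called 4 genes of the partner pathways at 16 against 8 weeks, where 22 of 72 were called otherwise. At 16 against 8 weeks, leaving out 8-week replicates 3, 4 and 5 gave 7 members, 5 lower, and 12 partner genes, no filter on low counts gave 6 members, 4 lower, and 11 partner genes, and fitting only the 2 groups gave 12 partner genes. Over all genes these settings called 15.1%, 9.34% and 13.6% in turn, beside 21.6% otherwise. The cause of these moves was not tested. Leaving out each library in turn gave 17 to 23 members called at 8 weeks (5 to 8 higher, 12 to 17 lower), 26 to 30 at 16 weeks (6 higher, 20 to 24 lower) and 8 to 17 at 16 against 8 weeks (2 to 3 higher, 6 to 14 lower). In the same fits the share of all genes called ranged over 43.7% to 57.2%, 46.8% to 66.4% and 13.2% to 30.1%. Partner genes called ranged over 30 to 41, 40 to 51 and 10 to 31, and the 10 came without 16-week replicate 5 or 8. Without 16-week replicate 5 or 8, 6 members were lower at 16 against 8 weeks. Slc25a43 and Slc25a53, at under 1 CPM, were not tested under the stricter filter. No paired analysis was possible because the replicate numbers were given in accession order and the labels pair no animals.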
